A study of Mus musculus with 18 samples.

Results

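The constitutive proteasome subunits were described in CD4+ T cells before and after activation at 4 antigen doses. Members were chosen by name: every gene whose symbol starts with Psma, Psmb, Psmc or Psmd followed by a digit, without the inducible subunits Psmb8, Psmb9 and Psmb10 and without names containing "-ps". This gave 35 of the 15697 named features, and 4 names with "-ps" were dropped. They are 14 core genes (Psma1 to Psma7 and Psmb1 to Psmb7), 20 cap genes (Psmc1 to Psmc6, 11 further Psmd subunits and the assembly factors Psmd5, Psmd9 and Psmd10) and Psmc3ip. Psmc3ip meets the name rule, but its product is a partner of a recombination protein and no proteasome subunit, so it was kept out of all sums. The 35 genes lie on 15 chromosomes in mm10, with 7 of them on chromosome 11.

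The proteasome is the barrel-shaped protease that degrades proteins tagged with ubiquitin and cuts many of the peptides that cells present on MHC class I. Its core is a stack of alpha and beta rings, and the beta subunits Psmb5, Psmb6 and Psmb7 carry the chymotrypsin-like, caspase-like and trypsin-like active sites. A cap on the core recognises tagged proteins with its non-ATPase subunits, removes the ubiquitin and threads the protein into the core with a ring of ATPases. In lymphocytes and under interferon, Psmb8, Psmb9 and Psmb10 take the place of the catalytic subunits, which gives the immunoproteasome.

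The study varied T cell receptor signal strength to follow what T helper cells turn into. CD4+ T cells with the transgenic 5CC7 receptor, from spleen and lymph node, were sequenced at the 3′ ends of their RNA either naive or after 4 days of culture with antigen. The antigen was pPCC peptide at 0.01, 0.1, 1.0 or 10 µM, loaded on P13.9 cells, which the labels call fibroblasts, and these cells were also sequenced alone, giving 6 groups of 3 libraries. The labels name no age, sex or further allele, and they do not say whether the libraries of a group came from separate mice or cultures, so p-values measure the spread between these libraries.

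Values are the authors' normalized values, in which reads are divided by 1 size factor per library. Recovered reads in named genes numbered 27784 to 97752 in naive, 156941 to 732987 in activated and 201620 to 351978 in P13.9 libraries. A single read was worth a value of 2.17 to 6.55 in naive cells and 0.167 to 0.872 in activated cells. Naive replicates correlated over genes at 0.601 to 0.765, while replicates of every other group correlated at 0.90 or above, so the naive libraries stand apart in depth and agreement. The 10 T cell markers summed to 283 to 610.4 in the T cell groups and to 4.86 to 8.69 in P13.9, where Cd3e and Cd5 were listed at 0. RNA of the presenting cells remained at the lowest dose of 0.01 µM. Its share, read from 4 fibroblast genes against P13.9, was 31.9 ± 7.55% (SD, n = 3) there. The share was 7.79 ± 2.75%, 4.22 ± 1.34% and 1.53 ± 0.482% with each step up in dose. By the same measure naive libraries read 3.63 ± 3.18% (0 to 5.91%). Only the libraries at 0.01 µM all lay above this naive range. Those at 0.1 µM overlapped it, and those at 1.0 and 10 µM lay within it. The sum of 10 fibroblast markers was 104 to 159 at 0.01 µM, 7.91 to 14.7 at 10 µM, 19.7 to 41.1 in naive cells and 498 to 572 in P13.9, and 9 of the 10 had reads in P13.9. The 7 myeloid markers gave sums of 117 to 165 in naive libraries, of 24.1 to 38.3 in the activated libraries and of 91.5 to 120.4 in P13.9. All 7 had reads in naive cells, but only 3 did in P13.9, where Cd14, Itgam, Fcer1g and Tyrobp were at 0. The part of these markers in the differences from naive cells was not tested. In such bulk libraries fewer cells of a type and less RNA per cell cannot be told apart.

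The summed core and the summed cap were higher at every dose than in naive cells. Core genes summed to 524, 363 and 429 in the naive libraries, to 607, 618 and 780 at 0.01 µM, to 799.7, 872 and 795 at 0.1 µM, to 769, 671 and 754 at 1.0 µM and to 932, 899 and 834 at 10 µM. Cap genes summed to 341, 426 and 355 in naive cells, to 589, 608 and 578 at 0.01 µM, to 534, 533 and 504 at 0.1 µM, to 506, 542 and 496 at 1.0 µM and to 629, 615 and 654 at 10 µM. No activated library overlapped the naive range of either sum. Relative to naive cells the mean core level was 1.52, 1.87, 1.67 and 2.03 times as high at 0.01, 0.1, 1.0 and 10 µM. For the cap the same ratios were 1.58, 1.40, 1.38 and 1.69.

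The core sum was higher at 10 than at 0.01 µM by a log2 difference of 0.42 ± 0.22 (SD), and the cap sum by 0.10 ± 0.06. The cap sum was lowest among the activated groups at 0.1 and 1.0 µM, where all 6 libraries lay below the lowest of 0.01 and of 10 µM. The ratio of cap to core was 0.970, 0.985 and 0.742 at 0.01 µM, 0.667, 0.611 and 0.634 at 0.1 µM, 0.658, 0.808 and 0.659 at 1.0 µM and 0.675, 0.683 and 0.784 at 10 µM. In naive cells it ran from 0.650 to 1.17 and in P13.9 from 0.805 to 0.892. P13.9 cells alone held a core sum of 578 ± 17.3 and a cap sum of 488 ± 10.4, both above the naive range and below every library of 10 µM. The P13.9 share was 31.9, 7.79, 4.22 and 1.53% in order of rising dose, and 24.8, 31.0 and 39.8% in the libraries 0.01 A, B and C. Its part in the ratio of cap to core was not tested and cannot be told apart from that of dose. These sums are descriptions and carry no test.

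**Figure D1:**
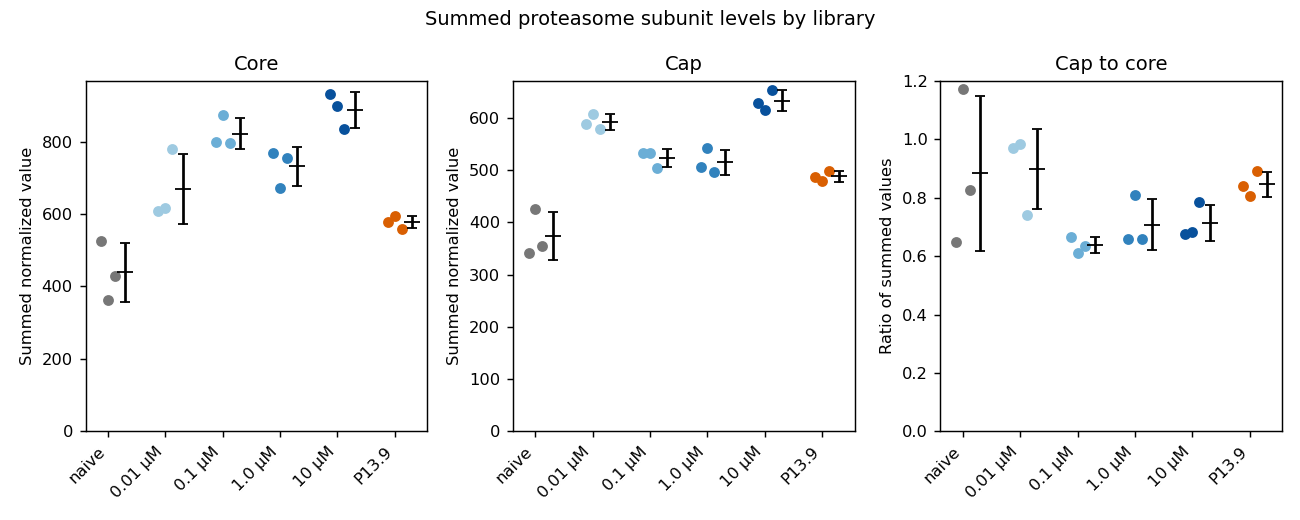
Summed normalized values of the 14 core genes (left) and the 20 cap genes (middle) and the ratio of cap to core (right, no unit) in the 6 groups on the horizontal axis. Points are libraries and bars are the mean ± SD of 3 libraries. Core sums of activated libraries lie between 607 and 932 and those of naive libraries between 363 and 524.

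As a share of all reads in named genes, core genes took 0.222 ± 0.0591% in naive cells and 0.697 ± 0.0336% at 10 µM, and cap genes 0.187 ± 0.0184% and 0.496 ± 0.0191%. On this scale the core was 3.14-fold and the cap 2.66-fold higher at 10 µM than in naive cells. The scale matters because the authors' size factors and the read totals differ most for naive libraries. The median log2 change of all 7263 genes tested for 10 µM against naive was -0.07 with limma on the deposited values and 0.33 with edgeR on the recovered reads, a shift of the whole table that member changes below have to be read against. In the fit of 15 T cell libraries, tests used limma with Benjamini-Hochberg adjustment over all genes, and edgeR's quasi-likelihood counts are given beside it because the naive libraries hold far fewer reads.

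For 10 µM against naive, 34 members were tested and Psmc3ip had too few reads. These groups lie in different runs of sample numbers, whose part was not tested and cannot be told apart from that of activation. By limma 21 members rose and 2 fell, where 24.3% of all genes tested rose and 32.8% fell. The members' median log2 change was 0.97, beside -0.07 for all genes. With edgeR 25 rose and 1 fell, where 29.7% of all genes rose and 25.3% fell, and the median was 1.56. All 21 members that rose by limma also rose with edgeR, while Psmc6 fell by limma alone. This overlap is given because, on simulated libraries of these depths, limma called too many unchanged low genes higher against naive cells, which is the direction of the members. There 150 of 285 limma calls were false, and 7 of 119 edgeR calls. The simulated reads were drawn with edgeR's own spread estimates, shared by all groups. The simulation is thus no independent check of edgeR, and it gave naive libraries no spread of their own. In 19 members every library at 10 µM was above every naive library, as in 22.5% of all genes, and in 2 every library was below, as in 33.7%.

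**Figure D2:**
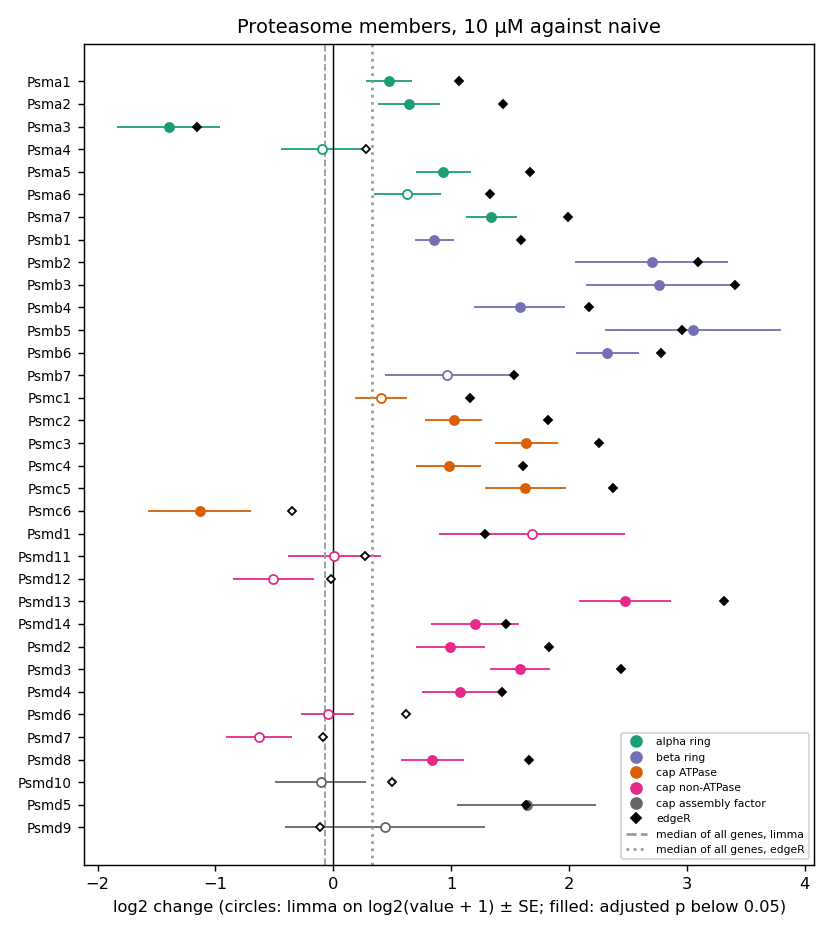
log2 change of 34 members for 10 µM against naive. Circles, coloured by role, are limma changes on log2(value + 1) with bars of ± 1 standard error, diamonds are edgeR changes, and filled symbols have an adjusted p below 0.05. Vertical lines mark the median of all genes at -0.07 (limma) and 0.33 (edgeR). The beta ring lies furthest to the right, with a median of 2.33, and Psma3 and Psmc6 are the filled circles left of 0.

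The beta ring stood highest. By limma 6 of its 7 genes rose with a median log2 change of 2.33, and by edgeR all 7 rose with a median of 2.78. Psmb5, the chymotrypsin-like subunit on chromosome 14 at 54614120 to 54617995 of mm10, had values of 0, 15.6 and 8.66 in naive cells, 20.8, 26.9 and 31.4 at 0.01 µM, 38.1, 51.4 and 39.3 at 0.1 µM, 52.5, 11.4 and 31.1 at 1.0 µM and 43.5, 53.8 and 36.6 at 10 µM. The naive values rest on 8 reads. All libraries at 0.01, 0.1 and 10 µM were above the naive range, and the library 1.0 B fell within it. Its log2 change for 10 µM against naive was 3.05 ± 0.75 (SE; limma adjusted p = 0.00281) and 2.96 with edgeR (adjusted p = 4.19e-05). Without naive 1 the limma change was 1.83 (adjusted p = 0.00179). Reads of Psmb5 could be split with a near-identical copy, since Psmb5-ps held 9 reads in naive cells and 2 at 10 µM. Such a split would make the change of Psmb5 too large.

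Psmb6, the caspase-like subunit on chromosome 11 at 70525324 to 70527858, had values of 13.1, 11.7 and 28.2 in naive cells, 46.1, 47.8 and 67.8 at 0.01 µM, 65.5, 77.6 and 61.3 at 0.1 µM, 66.1, 76.6 and 65.8 at 1.0 µM and 96.0, 90.8 and 73.2 at 10 µM. Every activated library was above the naive range. The change at 10 µM was 2.33 ± 0.27 (limma adjusted p = 3.17e-06). Reads of Psmb6 could be split with near-identical copies, since the table also lists Psmb6-ps and Psmb6-ps2. Psmb7, the trypsin-like subunit, had values of 6.55, 19.5 and 2.17 in naive cells and 12.7, 14.4 and 16.3 at 10 µM, which overlap. Its change was 0.96 ± 0.53 (limma adjusted p = 0.131) and 1.53 with edgeR (adjusted p = 0.0258).

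Of the structural beta subunits, Psmb1 had values of 105, 89.8 and 93.1 in naive cells and 189.5, 176 and 158 at 10 µM, a change of 0.86 ± 0.16 (limma adjusted p = 0.000412). Psmb4 was 111, 19.5 and 47.6 in naive cells and 141, 144 and 145 at 10 µM (1.58 ± 0.39, limma adjusted p = 0.00282). The naive libraries ranged widely and all lay below the lowest library at 10 µM. Psmb2 had 2 reads in all naive libraries and Psmb3 had 3. For them the ratio of reads per unit of size factor is safer than a fitted change: Psmb2 was 5.44 times as high at 10 µM (exact 95% counting interval 1.48 to 45.3) and Psmb3 6.76 times (2.29 to 33.0). At 0.01 µM the ratio was 3.15 for Psmb2, with an interval of 0.850 to 26.4 that includes no change, and 5.12 for Psmb3, with a lower bound of 1.73.

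**Figure D3:**
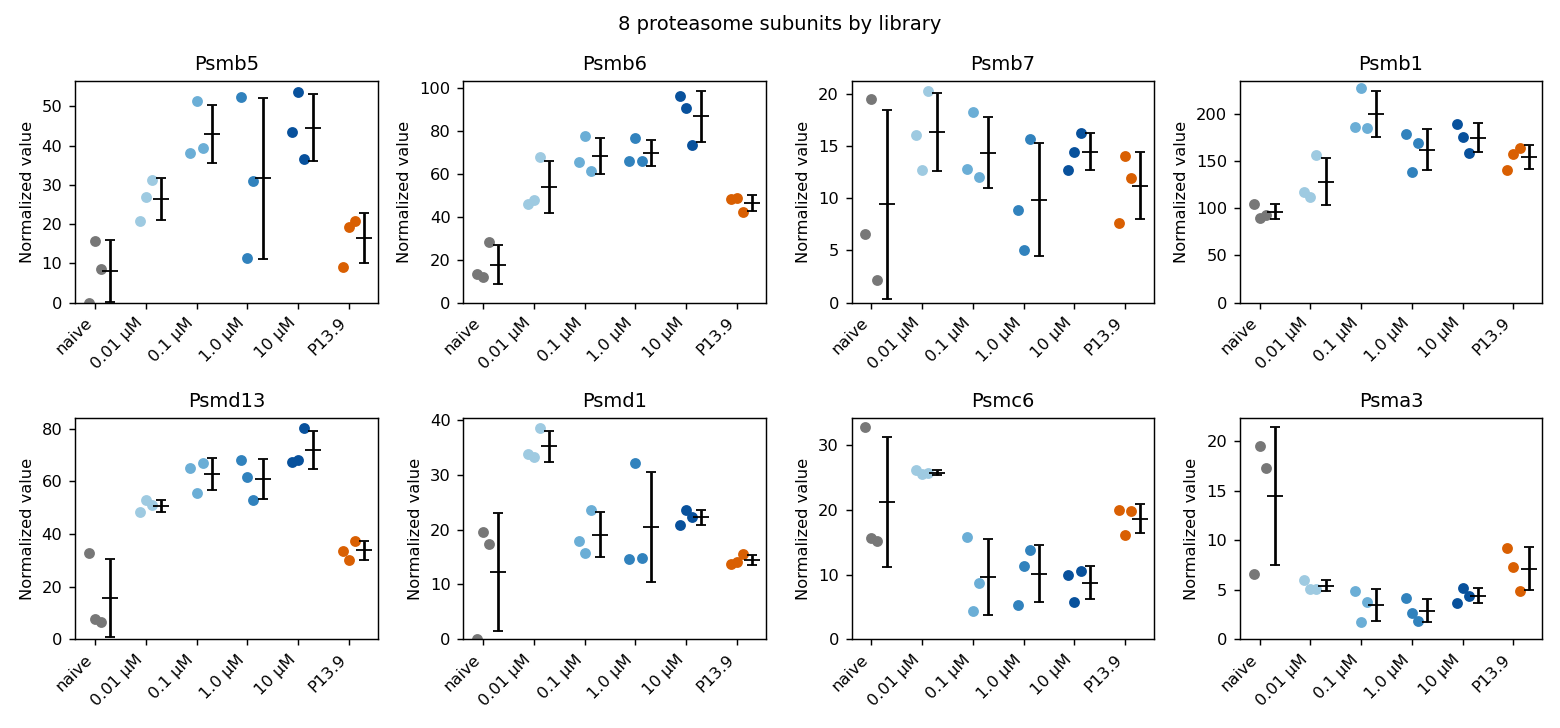
Normalized value of 8 members in the 6 groups on the horizontal axis. Points are libraries and bars are the mean ± SD of 3 libraries, and each panel has its own vertical scale from 0. Psmb6 rises from 11.7 to 28.2 in naive cells to 73.2 to 96.0 at 10 µM. Psmc6 values of the 3 higher doses lie below those of 0.01 µM, and the mean of Psma3 is highest in naive cells.

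Of the members, 29 had an entry in the RefSeq promoter table of GRCm38.p6. Psmb1, Psmb2, Psmb7, Psmc3, Psmd3 and Psmd7 had no entry. Psmc3ip had one but was left out of the search, which leaves 28 members with 30 windows, since Psma6 and Psmc2 had a pair each. The 250 bases before the annotated start were searched on both strands for 4 motifs. TGACNNNGC, the core of the antioxidant response element that Nfe2l1 and Nfe2l2 bind in proteasome genes, was in 5 of 30 member windows (16.7%) and in 10.2% of all 32851 windows. CCGGAAG, an ETS-type site, was in 10 (33.3% against 6.91%), the palindromic site of nuclear respiratory factor in 6 (20% against 3.74%), and CCAAT in 11 (36.7% against 33.8%). A match describes letters only. Given here, each 5′ to 3′ on the gene's strand with the matches in capitals, are the windows of Psmb5 and Psmb3, which were among the members that changed most, and of Psmc6, which fell between doses. Psmb5 lies on the minus strand at chr14:54617996-54618245, Psmb3 on the plus strand at chr11:97703184-97703433 and Psmc6 on the plus strand at chr14:45329574-45329823.
Psmb5: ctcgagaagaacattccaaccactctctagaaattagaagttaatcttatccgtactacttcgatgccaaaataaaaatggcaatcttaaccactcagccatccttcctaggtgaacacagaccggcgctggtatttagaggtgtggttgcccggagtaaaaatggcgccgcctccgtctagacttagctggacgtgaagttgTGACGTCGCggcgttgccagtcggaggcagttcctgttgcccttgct
Psmb3: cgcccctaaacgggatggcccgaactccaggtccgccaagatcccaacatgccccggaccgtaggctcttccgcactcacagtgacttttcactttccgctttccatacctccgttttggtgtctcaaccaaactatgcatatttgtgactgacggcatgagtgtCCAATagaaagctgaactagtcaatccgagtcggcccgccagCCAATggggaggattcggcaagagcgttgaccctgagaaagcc
Psmc6: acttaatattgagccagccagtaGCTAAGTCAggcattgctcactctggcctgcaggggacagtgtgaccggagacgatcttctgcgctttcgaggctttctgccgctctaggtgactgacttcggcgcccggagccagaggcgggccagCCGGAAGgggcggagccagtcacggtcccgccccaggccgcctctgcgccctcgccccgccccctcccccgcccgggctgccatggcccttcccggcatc
Psmb5 held TGACGTCGC and Psmb6 held TGACGGAGC, starting at -47 and -9 relative to the start in the table. The Psmb6 window, chr11:70525107-70525356, runs past the gene start of 70525324 given above, so its match lies within the annotated gene. Psmb3 held CCAAT 2 times and none of the other 3 motifs. The window of Psmd13, which rose by 2.48 by limma for 10 µM against naive, held none of the 4. Psmc6 held CCGGAAG, and GCTAAGTCA, which is the reverse complement form of the first motif. The other members with TGACNNNGC were Psmd9 and Psmd12.

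The alpha ring, which gates the entrance to the core, had smaller changes than the beta ring, a difference that was not tested. By limma 4 of its 7 genes rose for 10 µM against naive (Psma1, Psma2, Psma5 and Psma7) and 1 fell, with a median log2 change of 0.63. Psma7 had values of 52.4, 35.1 and 58.5 in naive cells and 128, 123 and 116 at 10 µM, with no overlap, and its change was 1.34 ± 0.22 (limma adjusted p = 8.68e-05). Psma5 was 32.8, 31.2 and 32.5 in naive cells and 73.7, 67.5 and 48.7 at 10 µM (0.93 ± 0.23, limma adjusted p = 0.0031). Psma1 and Psma2 passed narrowly, with limma adjusted p of 0.0493 and 0.0496.

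Psma3 went the other way. Its values were 6.55, 19.5 and 17.3 in naive cells, from 14 reads, then 6.03, 5.10 and 5.06 at 0.01 µM, 4.88, 1.74 and 3.73 at 0.1 µM, 4.20, 2.67 and 1.84 at 1.0 µM and 3.67, 5.14 and 4.41 at 10 µM. Every activated library was below the lowest naive one, which itself held 1 read. The change at 10 µM was -1.40 ± 0.43 (limma adjusted p = 0.0122) and -1.15 with edgeR (adjusted p = 0.0482). After quantile normalization it was -0.89 (adjusted p = 0.0769).

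Among the 6 ATPases of the cap, 4 rose for 10 µM against naive and 1 fell by limma, with a median of 1.00. Psmc3 was 13.1, 27.3 and 21.7 in naive cells and 61.0, 71.2 and 60.0 at 10 µM (1.64 ± 0.27, limma adjusted p = 0.0001). Psmc5 was 6.55, 15.6 and 4.33 in naive cells and 24.3, 29.8 and 24.5 at 10 µM (1.63 ± 0.35, limma adjusted p = 0.000977). For both genes the groups did not overlap. Psmc2 changed by 1.02 and Psmc4 by 0.98, and Psmc1 by 0.41 without a call by limma (edgeR 1.16, adjusted p = 0.00245). Psmc6 fell by 1.13 by limma (adjusted p = 0.0366), but the edgeR change was -0.35 (adjusted p = 0.563), and without naive 1 the limma change was -0.79 (adjusted p = 0.119).

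Of the 11 non-ATPase subunits 6 rose and none fell by limma for 10 µM against naive (median 0.99). Psmd13, a subunit of the lid on chromosome 7 at 140882394 to 140898642, had values of 32.8, 7.81 and 6.50 in naive cells, 48.4, 52.9 and 50.9 at 0.01 µM, 65.2, 55.8 and 67.1 at 0.1 µM, 68.2, 61.8 and 52.9 at 1.0 µM and 67.2, 68.2 and 80.3 at 10 µM. All activated libraries were above the naive range. The change at 10 µM was 2.48 ± 0.39 (limma adjusted p = 7.3e-05) and 3.32 with edgeR (adjusted p = 2.05e-09). Psmd3, also of the lid, was 32.8, 27.3 and 13.0 in naive cells and 64.7, 70.9 and 75.9 at 10 µM (1.59 ± 0.25, limma adjusted p = 8.45e-05).

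Psmd14, the deubiquitinase that strips ubiquitin from arriving proteins, was 6.55, 3.90 and 17.3 in naive cells and 19.8, 17.1 and 20.9 at 10 µM, which overlap (1.20 ± 0.37, limma adjusted p = 0.0128). Psmd4, a ubiquitin receptor, rose by 1.07, Psmd2, a scaffold of the cap, by 0.99 and Psmd8 by 0.84. Psmd7, the partner of Psmd14, was 19.7, 31.2 and 34.6 in naive cells and 22.0, 15.4 and 15.9 at 10 µM (-0.63 ± 0.28, limma adjusted p = 0.0657). Psmd12 changed by -0.51, Psmd6 by -0.05 and Psmd11 by 0.01, none of them called. By edgeR Psmd1 rose as well, by 1.29 (adjusted p = 0.0151).

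The assembly factors hold the ATPases while the ring forms. Psmd5 was 0, 3.90 and 8.66 in naive cells and 14.1, 6.51 and 11.7 at 10 µM (1.64 ± 0.59, limma adjusted p = 0.0267). Psmd10 changed by -0.11 and Psmd9 by 0.44, neither called. Psmd9 was 0, 27.3 and 21.7 in naive cells and 11.0, 8.91 and 12.5 at 10 µM. Its direction rests on the library naive 1, without which the change was -1.11 (limma adjusted p = 0.00184). Psmc3ip stayed at 0 to 2.36 in all T cell libraries.

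The other doses were set against the same naive libraries, so the 4 comparisons are not independent. For 1.0 µM, 16 members rose and 3 fell by limma (23.3% and 31.4% of all genes), and 23 rose and 1 fell by edgeR (27.6% and 22.8%). For 0.1 µM, 16 rose and 4 fell by limma (24.9% and 31.4%), and 23 rose and 1 fell by edgeR (28.5% and 22.9%). For 0.01 µM, 17 rose and 1 fell by limma (21.7% and 27.7%), and 26 rose and none fell by edgeR (26.6% and 19.2%). The members' median log2 changes by limma were 0.74, 0.78, 0.70 and 0.97 in order of rising dose. All 16, 16 and 17 that rose by limma at 1.0, 0.1 and 0.01 µM also rose with edgeR. At every dose the share of members that rose was above the share of all genes that rose.

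Single libraries moved some of these counts. For 0.01 µM 9 members were called by limma in place of 18 without the library 0.01 C. For 1.0 µM 12 were called in place of 19 without the library 1.0 A. With only the groups compared in the fit, 12 members were called for 10 µM, 7 for 1.0, 12 for 0.1 and 6 for 0.01.

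Changes of several members against naive cells are set side by side for the 4 doses, which is no test between doses. In the dose comparisons below limma called none of the members named here, and edgeR did not call Psmd7. The log2 change against naive for 0.01, 0.1, 1.0 and 10 µM was 1.64, 1.99, 2.02 and 2.33 for Psmb6 and 1.98, 2.28, 2.24 and 2.48 for Psmd13. For Psmd14 it was 1.63, 1.06, 0.99 and 1.20, and for Psmc2 1.25, 0.90, 0.62 and 1.02. For Psmd7 it was -0.48, -1.12, -1.02 and -0.63, of which the values at 0.1 and 1.0 µM were called by limma (adjusted p = 0.00331 and 0.0061) and by edgeR no value was called. For Psmd12 it was -0.41, -1.25, -1.07 and -0.51, with limma adjusted p of 0.00611 at 0.1 µM and 0.016 at 1.0 µM, and by edgeR no value was called (adjusted p = 0.104 and 0.169 at these doses).

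Doses were then compared with each other. For 10 against 0.01 µM no member rose and 1 fell by limma, where 1.9% of all genes rose and 6.25% fell, and 4 members had an unadjusted limma p below 0.05. With edgeR 9 members rose and 2 fell, where 15.5% of all genes rose and 19.3% fell. The members' median log2 change was 0.18 by limma, beside -0.03 for all genes. The 9 were Psma7, Psmb1, Psmb2, Psmb4, Psmb5, Psmb6, Psmd3, Psmd4 and Psmd13, with edgeR changes of 0.50 to 0.82. Of the 7 beta genes 5 are among them, and their 7 limma changes had a median of 0.56. In 10 members every library at 10 µM lay above every library at 0.01 µM, as in 21.8% of all genes, and in 5 every library lay below, as in 28.1%. By limma, the main test, no member rose between these doses. With edgeR the share of members that rose was above that of all genes, and the share that fell was below it. The shares that lay wholly above or wholly below differed from those of all genes in the same directions. None of these differences in share was tested. The P13.9 share was 31.9% at 0.01 µM and 1.53% at 10 µM. With this share subtracted limma called 2 members, where it called 8.62% of all genes, and these were Psma5 (0.96, adjusted p = 0.033) and Psmc6.

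**Figure D4:**
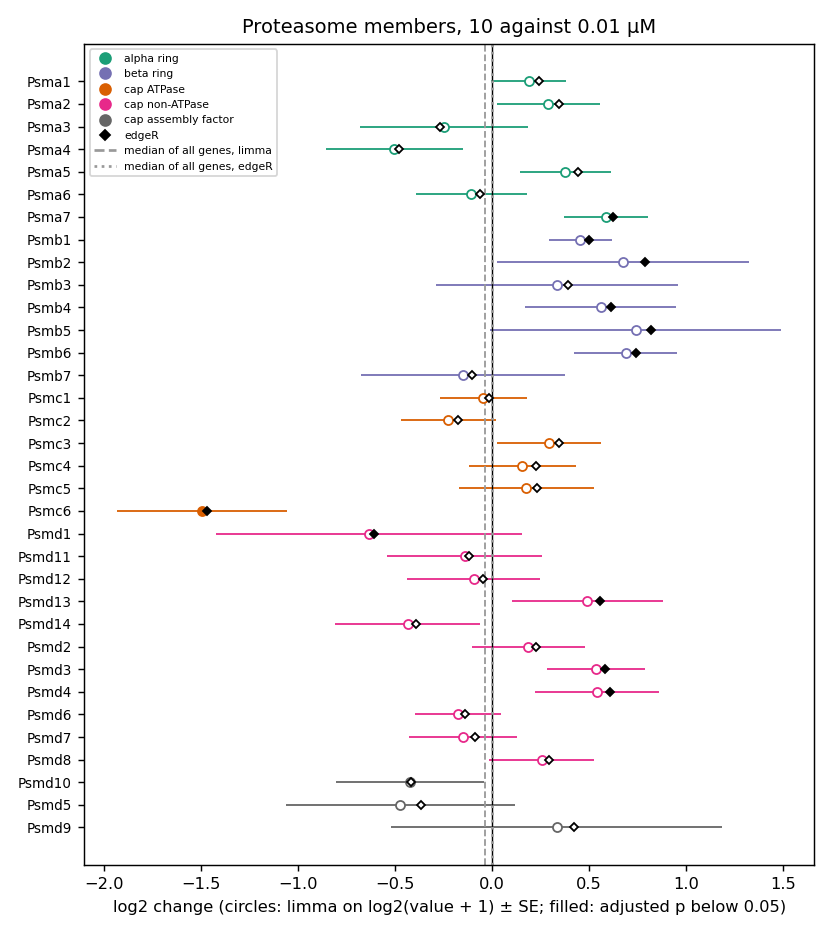
log2 change of 34 members for 10 against 0.01 µM. Circles, coloured by role, are limma changes on log2(value + 1) with bars of ± 1 standard error, diamonds are edgeR changes, and filled symbols have an adjusted p below 0.05. Vertical lines mark the median of all genes. Psmc6 at -1.49 is the member furthest from 0.

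Psmc6, an ATPase of the cap on chromosome 14 at 45329823 to 45349074, was the member that fell. Its values were 32.8, 15.6 and 15.2 in naive cells, 26.1, 25.5 and 25.6 at 0.01 µM, 15.9, 4.36 and 8.70 at 0.1 µM, 5.25, 11.4 and 13.8 at 1.0 µM and 9.89, 5.82 and 10.5 at 10 µM. P13.9 cells held 19.9, 16.0 and 19.9. All 9 libraries of the 3 higher doses lay below the 3 of 0.01 µM, and naive cells lay between 15.2 and 32.8. The change for 10 against 0.01 µM was -1.49 ± 0.44 (limma adjusted p = 0.0465) and -1.47 with edgeR (adjusted p = 7.91e-05). It did not pass with limma when any library of either group was left out (adjusted p of 0.0807 to 0.198), with the replicate letter as a block (0.0776) or with no filter on low values (0.0615). With the P13.9 share subtracted the change was -1.65 (limma adjusted p = 0.0499).

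Psmd1, a scaffold of the cap that docks ubiquitin receptors, had values of 33.8, 33.2 and 38.5 at 0.01 µM and 20.9, 23.6 and 22.2 at 10 µM, with no overlap. P13.9 cells held 13.8, 14.0 and 15.5, below both. The change was -0.64 ± 0.79 (limma adjusted p = 0.723) and -0.61 with edgeR (adjusted p = 0.0399). The wide limma error came with naive values of 0, 19.5 and 17.3, since the spread was shared. With the 2 groups alone in the fit its limma adjusted p was 0.00432.

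For 0.1 against 0.01 µM, 1 member rose and none fell by limma, where 2.18% of all genes rose and 3.41% fell, and 1 rose and 3 fell with edgeR (11.3% and 12.7%). The member that rose was Psmb1, a structural subunit of the beta ring on chromosome 17 at 15475721 to 15498276. Its values were 117, 111 and 156 at 0.01 µM, 186, 227 and 185 at 0.1 µM, 178, 138 and 169 at 1.0 µM and 189.5, 176 and 158 at 10 µM, with no overlap between 0.01 and 0.1 µM. The change was 0.64 ± 0.16 (limma adjusted p = 0.0352) and 0.63 with edgeR (adjusted p = 0.00546). Quantile normalization gave 0.27 (limma adjusted p = 0.389), the block by letter kept the change with an adjusted p of 0.0729, and leaving out libraries in turn gave adjusted p of 0.0406 to 0.174. The 3 members that fell with edgeR were Psmc6, Psmd1 and Psmd12.

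The labels' sample numbers fall in 2 runs, with 10 and 0.1 µM together in a run and all other groups in the other. A run here is a stretch of sample numbers and no named batch. Comparisons of 10 or 0.1 µM with naive, 0.01 µM or P13.9 cross the runs. There the part of the run was not tested and cannot be told apart from the difference between groups. The following 2 dose comparisons stay within a run. For 10 against 0.1 µM no member was called by limma or edgeR, where limma called 0.0964% of all genes and edgeR 1.53%. DESeq2 called 1 member (1.65% of all genes), 1 had an unadjusted limma p below 0.05, and 29 of 34 changes were above 0 with a median of 0.22. For 1.0 against 0.01 µM limma called no member (4.3% of all genes, 3 members at an unadjusted p below 0.05), DESeq2 called 3 (19.8%) and edgeR found that 6 fell (11.6% of all genes fell). Those 6 were Psma4, Psmc2, Psmc6, Psmd1, Psmd5 and Psmd14. In 13 members every library at 1.0 µM lay below every library at 0.01 µM, as in 21.3% of all genes, and 11 of the 13 were cap genes.

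The dose curvature, the mean of the end doses minus the mean of the middle doses, was above 0 in 29 of 34 members with a median of 0.23, beside 0.04 for all genes. It was called by limma in none (0.757% of all genes, 6 members at an unadjusted p below 0.05) and by edgeR (8.41%) and DESeq2 (7.85%) in 1, Psmd12. Psmd12, a lid subunit, was 15.6, 18.3 and 17.5 at 0.01 µM, 11.6, 6.10 and 10.8 at 0.1 µM, 10.5, 8.36 and 13.2 at 1.0 µM and 16.4, 15.4 and 16.1 at 10 µM. Both end doses lay above both middle doses in every library, and the edgeR curvature was 0.68 (adjusted p = 0.013). Among cap genes the curvature had a median of 0.36 and among core genes of 0.08.

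P13.9 cells were compared with T cells in a fit of all 18 libraries. Against naive cells 11 members were higher and 1 lower in P13.9 by limma, where 29.9% of all genes were higher and 29.1% lower, and with edgeR 12 were higher and 1 lower (26.5% and 23.4%). Without naive 1 limma called 20. For 10 µM against P13.9, 10 members were higher and 2 lower by limma (15.6% and 26.4%), and 25 higher and 1 lower by edgeR (30.3% and 28.1%). The limma count was 5 or 6 when any library of either group was left out. Psmb4 was 52.9, 55.5 and 51.7 in P13.9 and 141, 144 and 145 at 10 µM (1.41 ± 0.36, limma adjusted p = 0.00413). Psmc2 was 45.3, 44.1 and 43.3 in P13.9 and 32.5, 25.3 and 25.3 at 10 µM (-0.67 ± 0.23, limma adjusted p = 0.0266, edgeR adjusted p = 0.223). Psma5 was 90.5, 85.6 and 66.7 in P13.9, with every library above the naive values of 31.2 to 32.8.

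The catalytic subunits were set against their inducible counterparts. Psmb5, Psmb6 and Psmb7 summed to 35.2 ± 14.0 in naive cells, 96.6 ± 19.9 at 0.01 µM and 146 ± 17.4 at 10 µM, and the ratio of Psmb8, Psmb9 and Psmb10 to them was 1.39 ± 0.855, 1.20 ± 0.289 and 2.28 ± 0.131 in these groups. The ratio was 1.90 ± 0.168 at 0.1 µM, 1.82 ± 0.313 at 1.0 µM and 0.467 ± 0.160 in P13.9. The naive ratios ran from 0.667 to 2.33 and rest on 3 to 18 catalytic and 7 to 14 inducible reads per library. The P13.9 share was 31.9% at 0.01 µM, and its part in the ratio there was not tested and cannot be told apart from that of dose.

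**Figure D5:**
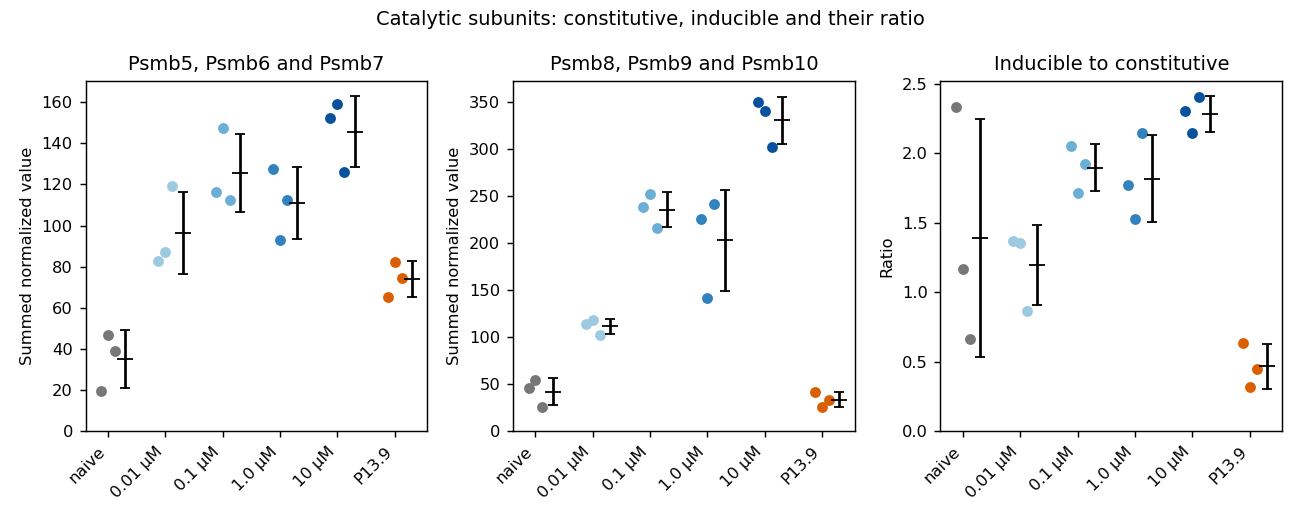
Summed normalized values of the constitutive catalytic subunits (left) and the inducible ones (middle) and their ratio (right, no unit) in the 6 groups on the horizontal axis. Points are libraries and bars are the mean ± SD of 3 libraries. The ratio lies between 2.14 and 2.40 at 10 µM, between 0.862 and 1.37 at 0.01 µM and between 0.317 and 0.635 in P13.9.

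Other genes of the pathway were taken from lists, 34 of whose genes were tested. For 10 µM against naive 12 rose and 9 fell by limma, where 24.3% of all genes rose and 32.8% fell, and the median was -0.03 beside -0.07 for all genes. By edgeR 13 rose and 4 fell, where 29.7% of all genes rose and 25.3% fell. All 3 inducible subunits rose, as did 3 of 5 activators and inhibitors (Psme1, Psme3 and Psmf1). Psme3, a subunit of a nuclear activator ring, rose by 2.47 (limma adjusted p = 0.000575) from 3 naive reads, and its read ratio of 10 µM to naive was 4.60 (exact 95% counting interval 1.55 to 22.5). Of 5 core assembly chaperones Psmg1, Psmg2 and Psmg4 rose and Psmg3 fell by limma, the last without a call by edgeR (adjusted p = 0.436). Psmg1 had 3 naive reads and Psmg2 had 2. Pomp, which matures the core, changed by 0.38 (limma adjusted p = 0.0549, edgeR 1.10, adjusted p = 3.96e-05). Of 4 further cap proteins none rose by limma or edgeR, and Usp14, a deubiquitinase bound to the cap, fell by 0.95 by limma (adjusted p = 0.00116, edgeR -0.28, adjusted p = 0.452).

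Of 5 genes listed as regulators, Ngly1, which activates Nfe2l1, rose by 2.23 (limma adjusted p = 0.000656) from 1 naive read. The read ratio of Ngly1, 5.22, had a counting interval of 0.906 to 209 that includes no change. Nfe2l1, Nfe2l2 and Akirin2 fell by limma, of which edgeR called Nfe2l2 but neither Nfe2l1 (adjusted p = 0.107) nor Akirin2 (adjusted p = 0.248). Nfe2l2 was 5.57 ± 0.405 at 10 µM, 16.1 ± 3.16 at 0.01 µM, 23.0 ± 18.4 in naive cells and 65.6 ± 11.1 in P13.9, and for 10 µM against naive it changed by -1.53 (limma adjusted p = 0.012, edgeR -1.39, adjusted p = 0.00653). Of 12 genes of ubiquitin and its delivery 2 rose and 4 fell by limma, a share below that of all genes for the rise (24.3%) and near it for the fall (32.8%). For 10 against 0.01 µM 4 of the 34 rose by limma, the 3 inducible subunits and Psme1, where 1.9% of all genes rose.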

How the data were processed

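The data are 1 table of 18 libraries of 3′ end RNA sequencing. Per the submitters' processing notes reads were checked with FastQC (0.11.8), the aligner was STAR (2.6.1d) on mm10, the counter HTSeq (0.9.1) and DESeq2 was also used. The annotation and the strand setting: not given in the sources used here. The deposited values are a signal in which the authors divided gene counts by 1 size factor per library. Whole reads were recovered for 284543 of 284544 values (tolerance 1e-05), the exception being Tbx21 in naive 1. Features without a gene name, 111 of 15808, held 12.5 to 15.7% of naive reads and 1.94 to 5.36% of other reads and were left out.

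The main test was limma 3.58.1 (R 4.3.3) on log2(value + 1) with a mean-variance trend, for genes that reached a value of 5 in 3 or more libraries, over 15 T cell libraries (7263 genes) or all 18 libraries (8178 genes). A gene was called at a Benjamini-Hochberg adjusted p below 0.05. A change on this scale can understate that of low genes, but it can also be too large where a naive library holds 0. For 10 µM against naive Psmd1, at 0 in naive 1, changed by 1.69 by limma and 1.29 by edgeR. Without naive 1 its limma change was 0.26. edgeR 4.0.16 and DESeq2 1.42.0 were run on the recovered reads, with edgeR printed beside limma because, tested on simulated data, limma made too many false calls for 10 µM against naive cells, most of them toward higher values and among genes with a mean below 20, and edgeR made few. For 10 against 0.01 µM limma made none in this simulation and missed more of the changed genes than edgeR. The simulated reads used edgeR's spread estimates over all T cell libraries, so the low count of false edgeR calls is no independent check. Tables were handled with Python 3.11.15 and pandas 2.3.3, and intervals with SciPy 1.17.1. Intervals of read ratios cover counting error only, and reads carry no molecular identifiers here. No library had the same values as another. The P13.9 share was read from Col1a2, Sparc, Fn1 and Serpinh1. Every member could be named in every comparison. The members and the gene lists were chosen with earlier results of these data known, so they are no independent support. Alternatives were another pseudocount, other filters, quantile normalization, array weights, a replicate block, only the groups compared, the P13.9 share subtracted and leaving out each library. The result for 1 gene of the related lists is not reported here.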

Additional observations from a re-analysis of the deposited data

Results flagged for a closer look

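Psmb6-ps2, a gene copy dropped from the members by its name, had reads in activated cells where naive cells had 0 reads, which allows up to 16.8 RPM over named genes. It held 42.3, 53.3, 50.1 and 58.5 RPM at 0.01, 0.1, 1.0 and 10 µM and 26.6 RPM in P13.9. Psmb5-ps went the other way, with 9 reads (50.3 RPM) in naive cells, 2 at 10 µM and 0 at the other doses and in P13.9. Reads of these copies and of Psmb5, Psmb6 and Psma5 may be split between near-identical sequences, so the values of all of them are uncertain.

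The change of Psmc6 against naive cells differed between 10 and 0.01 µM by -1.49 (limma adjusted p = 0.0465, lower in 3 of 3 libraries). The change of Psmb1 against naive cells differed between 0.1 and 0.01 µM by 0.64 (limma adjusted p = 0.0352, higher in 3 of 3 libraries). Both tests are of the difference between the doses itself. Neither passed with the replicate letter as a block (limma adjusted p = 0.0776 and 0.0729). Leaving out each of 6 libraries in turn kept the call in 0 of 6 for Psmc6 (limma adjusted p of 0.0807 to 0.198) and in 1 of 6 for Psmb1 (0.0406 to 0.174).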

How the results depend on the processing

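Naive libraries held 80 to 198 core reads and 52 to 164 cap reads, so changes of low members against naive cells rest on few reads. Among single members, the alternatives other than leaving out a library kept the direction and the side of the threshold in 2899 values, passed it anew in 253 and lost it in 140. Leaving out a library kept both in 2236, passed anew in 58, lost the call in 150 and turned 4, all of them Psmd9 without naive 1: -1.11, -1.29, -1.34 and -1.45 for 10, 1.0, 0.1 and 0.01 µM against naive, where leaving out other libraries gave up to 1.30, 1.12, 1.07 and 0.96. The cause was not tested.

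With only genes of a mean of at least 20, which tests 18 members, 15 were called for 10 µM and 10 for 0.1 µM against naive. With only the groups compared in the fit the counts were 12, 7, 12 and 6 for 10, 1.0, 0.1 and 0.01 µM against naive, 10 for 10 against 0.01 µM, 6 for 0.1 against 0.01 µM, 3 for 1.0 against 0.01 µM, 2 for the curvature, 7 for P13.9 against naive and 20 for 10 µM against P13.9. For 10 against 0.01 µM the count was 0 with no filter or with the mean filter, 11 with edgeR, 11 with DESeq2, 16 with array weights and 2 with the P13.9 share subtracted. For 0.1 against 0.01 µM it was 2 with a pseudocount of 5, 4 with edgeR, 6 with DESeq2, 12 with array weights and 2 with the share subtracted. DESeq2 and array weights each called 1 member for 10 against 0.1 µM. For 1.0 against 0.01 µM edgeR called 6, DESeq2 3 and array weights 13, and for the curvature 1, 1 and 6. For 10 µM against P13.9 edgeR called 26, DESeq2 22 and array weights 20. As a share of reads the log2 difference of 10 µM from naive was 1.68 for the core and 1.42 for the cap.

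Leaving out libraries in turn gave 18 to 24, 12 to 20, 17 to 24 and 9 to 23 calls for 10, 1.0, 0.1 and 0.01 µM against naive. It gave 0 to 0 for 10 against 0.01, 10 against 0.1 and 1.0 against 0.01 µM and the curvature, and 0 to 1 for 0.1 against 0.01 µM. It gave 10 to 20 for P13.9 against naive and 5 to 6 for 10 µM against P13.9. The summed core differed by 0.90 to 1.17 between 10 µM and naive and by 0.36 to 0.54 between 10 and 0.01 µM, and the summed cap by 0.70 to 0.86 and by 0.072 to 0.117.

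With the replicate letter as a block 0 members were called for 10 against 0.01 µM and 0 for 0.1 against 0.01 µM. The letters do not pair the libraries: 5 of 18 pairs with the same letter had deviations correlated above 0.1 (range -0.344 to 0.326), and 4 of 12 libraries correlated best with their own letter. Naive and P13.9 columns carry no letter, so no block was fitted there.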
